A study of Saccharomyces cerevisiae with 6 samples.

Results

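The genes described here are 39 of the 6256 yeast genes with a probe on the array. A gene was taken if neither of its spots was flagged as well above background on any of the 3 arrays of the mutant F3, and if at least 1 spot carried that flag on each of the 3 arrays of the reference strain. ARO3 and SEO1 also met this rule and were left out. The flags of both strains chose the genes, so their levels and differences are given as a description with no test. F3 is a single mutant of the budding yeast Saccharomyces cerevisiae that was selected by evolutionary engineering for resistance to sulfur dioxide. The labels give the genotype of neither strain beyond this. Each strain was grown as 3 cultures in a minimal medium (YMM) to early exponential phase, with shaking at 150 rpm and a temperature of 30 °C, up to an OD600 of about 1.0, with no sulfur dioxide named for these cultures. A growth label also names overnight growth of both strains in YPD, a rich medium. From each culture, 0.2 µg of total RNA was labelled with Cy3 and hybridised to 1 one-colour Agilent array.

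Most well-studied yeast genes give strong signals on such arrays in growing cells, and genes near the detection limit can be of several kinds. Some are silent outside a special state, such as the sporulation genes, which act when a diploid cell forms spores. Some are reading frames from the first annotation of the genome that were later judged unlikely to encode a protein, often because they overlap a known gene. Others lie in mitochondrial introns, whose RNA is spliced out of the transcripts of the respiratory genes COB and COX1. Their products act as maturases in splicing or as homing endonucleases. Homing endonucleases cut genes that lack the intron, and repair of the cut then copies it in.

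Between 93.6% and 95.3% of the genes were well above background on each array, and no gene spot was saturated. The 75th percentile of the signal in intensity units was 9534, 9066 and 8314 for F3, against 2791, 4890 and 4973 for the reference. By the scanner software, the signal of the negative controls was out of range and the spot grid was not good on every F3 array, and neither mark was set on any reference array. All F3 arrays shared 1 slide and 1 scan day, and the reference arrays lay on 2 other slides scanned on another day, so slide, scan day, these quality marks and strain cannot be told apart. Levels below are the log2 signal minus the 75th percentile of the same array, and a difference is F3 minus reference on that scale. As an alternative, arrays were scaled by the 7 spike-in RNAs that had every spot well above background, which moved all differences up by 1.71 log2 units and their median over all tested genes to 1.76. In RNA from whole cultures, fewer expressing cells and less RNA per cell cannot be told apart.

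On the F3 arrays the 39 genes were dim but mostly not at zero, so a name such as "below background" goes against the data, and they are called not well above background here. Of the 39, 28 were above the 95th percentile of the 77 negative control spots on all 3 F3 arrays, and 2 were above it on none. The software called 24 of the 39 positive and significant, a weaker flag than well above background, on all 3 F3 arrays, 8 on 2, 4 on 1 and 3 on none. The median background-subtracted intensity of the set was 9.89, 9.91 and 8.43 units on the F3 arrays, against 20.1, 28.3 and 35.7 units on the reference arrays. The flag itself was reached at different intensities. The dimmest spot flagged as well above background had 24.2, 33.7 and 35.3 units on the F3 arrays, against 12.7, 17.8 and 23.6 units on the reference arrays. The highest reference intensity of 3 of the 39 genes lay under the lowest of the F3 limits, and that of 19 lay under the highest of them. Before scaling, the intensities of the strains overlapped for 10 of the 39 genes. The other 29 had every F3 array below every reference array, as had 7.16% of the 5948 genes well above background on 3 or more arrays, and since the rule used these signals nothing is read from the difference. The part of these unequal limits in the size of the set was not tested.

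**Figure D1:**
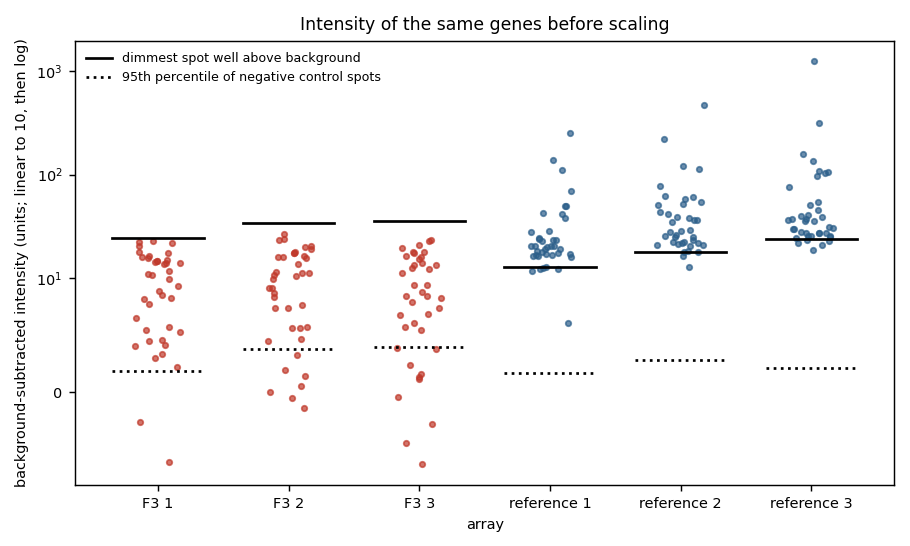
Background-subtracted intensity of the 39 genes on each array, in intensity units on an axis that is linear up to 10 and logarithmic above, with F3 arrays in red, reference arrays in blue and points spread sideways for legibility. Solid lines mark the dimmest single spot that was well above background and dotted lines the 95th percentile of the negative control spots. All F3 points lie under limits of 24.2, 33.7 and 35.3 units, while the reference limits are 12.7, 17.8 and 23.6 units. Some reference points lie just under their line because a point averages both spots of a gene and 1 flagged spot was enough.

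After scaling, the levels of the 39 genes lay between −10.60 and −8.56 in F3 (median −9.85) and between −8.41 and −2.95 in the reference (median −7.33). The median reference level over the 5948 genes that passed the filter (well above background on 3 or more arrays) was −1.34, so in the reference too the set lay near the bottom of the measured range. Only 11 of the 39 had a reference level above −6.5. The difference lay between −6.20 and −1.04 with a median of −2.43, against a median of 0.05 over the 5948 genes. All 39 genes were lower on every F3 array than on any reference array, a pattern the rule favours, and 39.5% of the 5948 genes had it. Over those genes, 79.7% were called different between the strains at an adjusted p under 0.05 (limma). Because the F3 level of these genes is only a bound, the fold is given as a lower limit, for this scaling and background correction alone. It sets the mean reference level against the mean, over the F3 arrays, of the gene's own level or, where that is lower, the lowest level of any gene well above background on that array. By this limit 37 of the 39 genes were at least 2-fold lower in F3, 14 at least 4-fold, 7 at least 8-fold and 2 at least 16-fold, with a median limit of 3.50-fold. With the dimmest single spot well above background as the floor (the spot floor), the median limit was 1.98-fold, 19 genes were at least 2-fold lower, and the limit of 35 of the 39 was more than 1.5 times smaller.

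**Figure D2:**
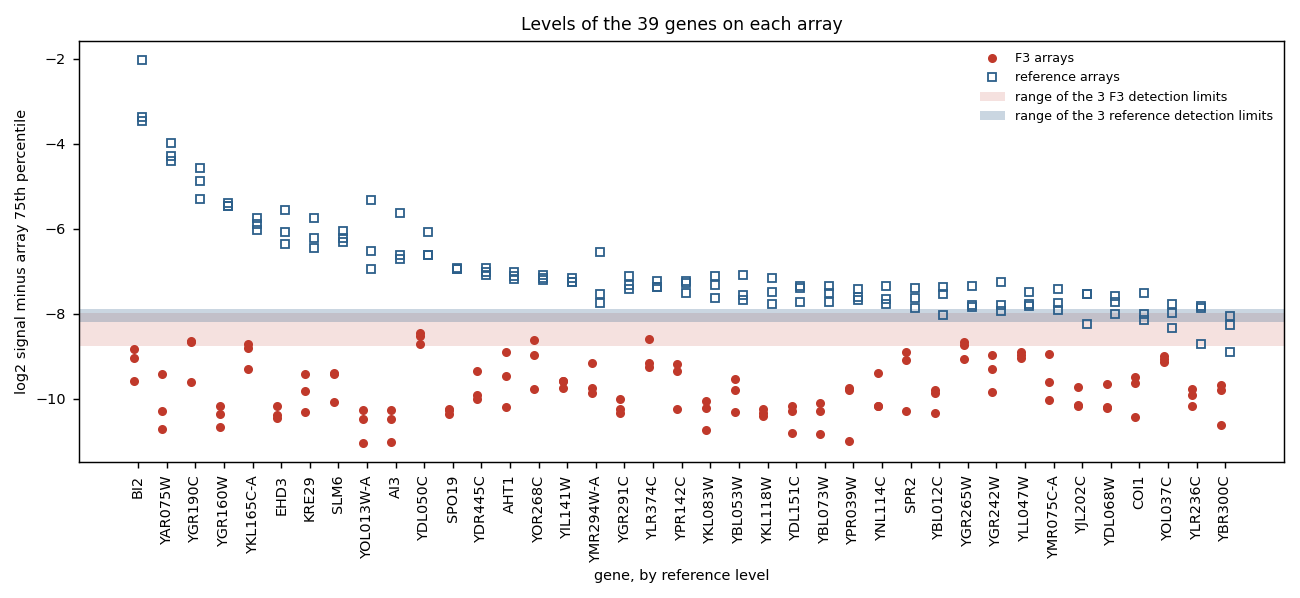
Level of each of the 39 genes on each array, as log2 signal minus the 75th percentile of the array, with genes ordered by their mean reference level. Filled red circles are the 3 F3 arrays, open blue squares the 3 reference arrays, and the bands span the levels of the dimmest spot well above background on the arrays of each strain. BI2 and YAR075W stand highest in the reference. The genes at the right lie close to the bands in the reference, and most of their F3 points lie below both bands.

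The mitochondrial genome gave the gene with the largest fold limit. BI2 is an intron reading frame of COB, the gene for cytochrome b, and encodes a maturase needed to splice that intron. Its level was −8.84, −9.59 and −9.04 on the F3 arrays, against −3.47, −3.37 and −2.02 on the reference arrays, and its intensity was 20.4, 11.4 and 16.4 units in F3 and 252, 473 and 1266 units in the reference. Both scales kept the strains far apart, reference array 3 was the highest, and BI2 was at least 64.6-fold lower in F3 (41.4-fold with the spot floor). Without reference array 3 the difference was −5.74, against −6.20 with it. The difference of BI2 was −4.49 with spike-in scaling and −3.91 with another background correction (normexp), both smaller in size than the limit.

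AI3 is a reading frame in an intron of COX1, which encodes the catalytic subunit of cytochrome c oxidase, and its product is the homing endonuclease I-SceIII. Its level was −11.02, −10.49 and −10.27 on the F3 arrays, where the intensities of −2.64, 1.38 and −6.29 units lay under the 95th percentile of the negative controls on each array. On the reference arrays it was −6.72, −6.62 and −5.63, again with array 3 the highest. AI3 was at least 7.62-fold lower in F3 (4.002-fold with the spot floor), and the difference was −3.92 without reference array 3, against −4.27 with it.

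The host genes of these introns moved the other way. COB, whose span in the RefSeq table holds the whole of BI2, rose by 1.22 ± 0.15 (SE; limma, adjusted p = 8.07e-05), and COX1, whose span holds AI3, rose by 1.13 ± 0.20 (limma, adjusted p = 6.86e-04). COX2, another subunit of the same oxidase, rose by 1.21 ± 0.22 (limma, adjusted p = 9.50e-04). Among the other intron frames, AI1 fell by 4.41 ± 0.29 (limma, adjusted p = 1.28e-06) and AI5_BETA fell by 4.46 ± 0.25 (limma, adjusted p = 5.66e-07), both well above background in each strain. AI2 had a difference of −0.39 ± 0.21 that did not pass the test (limma, adjusted p = 0.110; −0.62 and called, with adjusted p = 0.00787, without reference array 1, and 1.32 and called higher, with adjusted p = 1.18e-05, with spike-in scaling), and AI5_ALPHA one of 0.59 ± 0.18 that did (limma, adjusted p = 0.0149). Intron frames thus differed among themselves. AI4 and SCEI, both for homing endonucleases, narrowly missed the rule, with 0 F3 arrays and 2 reference arrays well above background.

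Of the 23 mitochondrial reading frames with a probe, 15 others than BI2 and AI3 were tested, and 6 were called lower and 6 higher in F3, against 38.2% and 41.5% of all tested genes. Their median difference was 0.17, against 0.05 over all genes. With spike-in scaling 4 of the 15 were called lower (against 4.29%) and 11 higher (against 85.6%), with a median of 1.88, against 1.76 over all genes. The lower ones also held VAR1, the ribosomal protein made in mitochondria, with a difference of −3.02 ± 0.26 (limma, adjusted p = 7.92e-06), and ATP8, a small subunit of the ATP synthase, with −2.43 ± 0.32 (limma, adjusted p = 1.13e-04). The remaining 2 lower calls, OLI1 and Q0297 (−0.40 and −0.28, but 1.31 and 1.43 with spike-in scaling), and 2 of the higher ones, ATP6 and AI5_ALPHA, were lost when 1 array was left out: ATP6 and OLI1 with 5 of the 6 arrays, Q0297 with 3 (F3 1, F3 2, reference 3) and AI5_ALPHA with 2 (reference 1, reference 2). The limma adjusted p then lay between 0.0509 and 0.128. ATP6 kept its call only without reference array 3 and OLI1 only without reference array 2. Reference array 3 lay above the mean of reference arrays 1 and 2 for 16 of the 17 mitochondrial genes tested. Over all tested genes the median of this gap was −0.01, and the share above that mean was not counted. Without it AI1 stood at −4.01, AI5_BETA at −4.17, VAR1 at −2.66 and COB at 1.37. The part of that array, which had a slide of its own, in these differences was not tested.

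**Figure D3:**
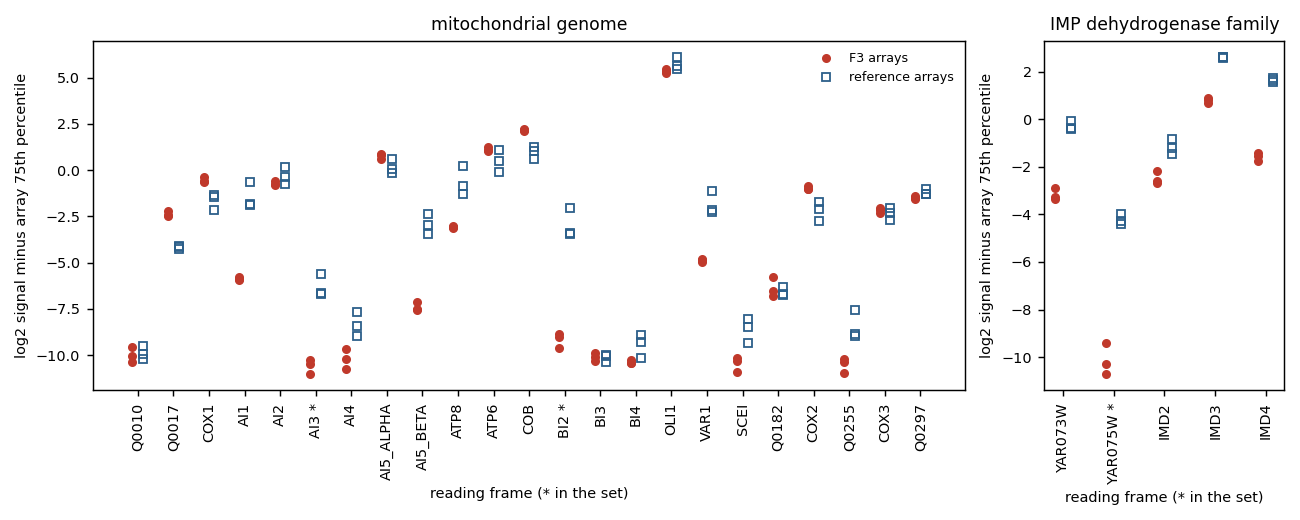
Levels on each array of the 23 mitochondrial reading frames with a probe (left) and of the 5 reading frames of the IMP dehydrogenase family (right), as log2 signal minus the 75th percentile of the array. Filled red circles are F3 arrays, open blue squares reference arrays, and an asterisk marks BI2, AI3 and YAR075W. COB and COX1 are higher in F3 while BI2, AI3, AI1 and AI5_BETA are lower, and all 5 frames of the IMP dehydrogenase family are lower on this scale, though IMD2 is at 0.39 with spike-in scaling.

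YAR075W, the last gene with a probe on the right arm of chromosome I, had the next largest limit. It is a reading frame related to IMP dehydrogenase, the enzyme that commits purine synthesis to guanine nucleotides, and lies beside YAR073W (IMD1), another such frame. Its level was −10.71, −10.30 and −9.41 on the F3 arrays, against −4.28, −4.41 and −3.97 on the reference arrays, so that each reference array was higher than each F3 array by a wide margin, and it was at least 32.7-fold lower in F3 (17.2-fold with the spot floor). The other 4 family members were well above background in both strains and were all called lower, against 38.2% of all tested genes. YAR073W differed by −2.88 ± 0.14 and IMD4, one of the 3 expressed full-length copies, by −3.22 ± 0.10 (limma, adjusted p = 2.18e-07 and 3.21e-08). IMD3 differed by −1.81 ± 0.08 and IMD2, the copy known for resistance to the drug mycophenolic acid, by −1.32 ± 0.18 (limma, adjusted p = 1.60e-07 and 1.71e-04), but when arrays were scaled by spike-in RNAs IMD2 stood at 0.39 and IMD3 at −0.10. These copies are close in sequence, so their probes may share transcripts and their values are not independent.

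EHD3 is the mitochondrial hydrolase of 3-hydroxyisobutyryl-CoA, an enzyme of valine breakdown. Its level was −10.45, −10.39 and −10.18 on the F3 arrays, against −6.07, −6.37 and −5.55 on the reference arrays, and it was at least 9.56-fold lower in F3 (5.02-fold with the spot floor). In intensity it had 3.01, 1.93 and 3.76 units on the F3 arrays, against 41.7, 58.2 and 104 units on the reference arrays. The 95th percentile of the negative controls was 1.88, 3.79 and 3.93 units on the F3 arrays, so EHD3 was above it on F3 array 1 alone. Its neighbour on chromosome IV is ARO3, an enzyme at the start of aromatic amino acid synthesis that the rule would also have taken. ARO3 lay at −10.95, −10.42 and −9.83 on the F3 arrays, against −3.67, −3.97 and −3.19 on the reference arrays, at least 50.04-fold lower in F3 (26.3-fold with the spot floor). Neither EHD3 nor ARO3 overlapped between the strains. KRS1, the lysyl-tRNA synthetase on the other side of EHD3, was well above background and differed by −0.94 ± 0.11 (limma, adjusted p = 4.34e-05), and by 0.77 with spike-in scaling.

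KRE29 encodes a subunit of the Smc5-Smc6 complex, which acts in DNA repair and chromosome segregation. Its level was −9.41, −10.31 and −9.81 on the F3 arrays, against −5.73, −6.22 and −6.45 on the reference arrays, and it was at least 8.12-fold lower in F3 (4.56-fold with the spot floor). Here reference array 1 was the highest and array 3 the lowest, unlike BI2 and AI3. Its neighbour PHM8, a nucleotide phosphatase, was higher in F3, with a difference of 1.55 ± 0.13 (limma, adjusted p = 7.19e-06).

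Besides YAR075W, 4 of the 10 genes with the largest limits are reading frames with a systematic name alone and no entry in the RefSeq table. YGR160W had levels of −10.66, −10.36 and −10.18 on the F3 arrays, against −5.38, −5.46 and −5.47 on the reference arrays, and was at least 14.1-fold lower in F3 (7.39-fold with the spot floor). Its intensity was 4.57, 3.24 and 2.34 units in F3 and 68.9, 114 and 109 units in the reference, so the reference arrays agreed closely and lay well clear of F3 on both scales. It is flanked by NSR1, a nucleolar protein of ribosomal RNA processing on the opposite strand, and RTS3, a putative part of protein phosphatase 2A. NSR1 was lower in F3, at −1.08 ± 0.40 in F3, against 4.33 ± 0.24 in the reference strain (SD, n = 3 each), a difference of −5.41 ± 0.20 (SE; limma, adjusted p = 5.39e-08). RTS3 was higher, at 1.87 ± 0.16 in F3, against −2.08 ± 0.19 in the reference strain (SD, n = 3 each), a difference of 3.95 ± 0.12 (SE; limma, adjusted p = 2.52e-08). By the order of systematic names, YGR160W thus lay between a gene that fell and a gene that rose. As YGR160W has no RefSeq entry, its overlap with either gene was not looked up.

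YGR190C had levels of −8.65, −9.61 and −8.66 on the F3 arrays, against −4.56, −5.30 and −4.88 on the reference arrays, and was at least 15.2-fold lower in F3 (10.4-fold with the spot floor). YKL165C-A had levels of −8.82, −9.30 and −8.72 on the F3 arrays, against −5.89, −6.04 and −5.75 on the reference arrays, and was at least 8.11-fold lower (5.39-fold with the spot floor). Both were among the brighter genes of the set in F3, and neither overlapped between the strains. YGR190C lies beside HIP1, the histidine permease (difference −1.59 ± 0.11; limma, adjusted p = 1.58e-06), and YKL165C-A beside TPK3, a catalytic subunit of protein kinase A (−1.71 ± 0.07; limma, adjusted p = 1.04e-07), but with spike-in scaling these neighbours stood at 0.12 and 0.00.

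YOL013W-A had levels of −11.04, −10.49 and −10.28 on the F3 arrays, against −6.94, −6.53 and −5.33 on the reference arrays, and was at least 7.94-fold lower in F3 (4.17-fold with the spot floor). Its F3 intensities of −6.08, −0.01 and −4.40 units were all under the 95th percentile of the negative controls, which held for AI3 and YOL013W-A alone among the 39 genes. The reference arrays disagreed more than for most of the set, array 3 being the highest, and without that array the difference was −3.87, against −4.34 with it.

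SLM6 overlaps REI1 over the whole 453 bases of its RefSeq entry. Its level was −9.42, −10.09 and −9.40 on the F3 arrays, against −6.21, −6.32 and −6.05 on the reference arrays, with no overlap and little spread in the reference, and it was at least 7.81-fold lower in F3 (4.37-fold with the spot floor). REI1, which acts late in the assembly of the large ribosomal subunit and lies on the opposite strand, was also lower, at −1.90 ± 0.24 in F3, against 1.14 ± 0.05 in the reference strain (SD, n = 3 each), a difference of −3.04 ± 0.12 (SE; limma, adjusted p = 6.76e-08). Whether the probe of SLM6 also reads REI1 transcripts was not tested. YMR075C-A, a dimmer gene of the set with a limit of 2.71-fold, overlaps RCO1, a subunit of the Rpd3S histone deacetylase, over 349 bases, and RCO1 had a difference of −0.12 ± 0.10 that did not pass the test (limma, adjusted p = 0.275), or 1.59 with spike-in scaling.

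The other genes with a standard name lay nearer to the limits. SPO19, a meiosis-specific protein of the prospore membrane, had levels of −10.24, −10.37 and −10.27 on the F3 arrays, against −6.94, −6.92 and −6.94 on the reference arrays, the smallest spread of the set in the reference, and was at least 4.99-fold lower in F3 (2.62-fold with the spot floor). SPR2, a gene of sporulation, had levels of −10.28, −8.91 and −9.10 on the F3 arrays, against −7.39, −7.86 and −7.64 on the reference arrays, and was at least 2.88-fold lower (1.62-fold with the spot floor). In unscaled intensity SPR2 had 8.21, 19.9 and 15.9 units in F3 and 17.1, 21.6 and 25.2 units in the reference, and the strains overlapped. Of the 46 genes of a meiosis and sporulation list that holds neither, 36 were tested, 7 were called lower and 20 higher in F3, against 38.2% and 41.5% of all tested genes, with a median difference of 0.38. With spike-in scaling 0 of the 36 were called lower (against 4.29%) and 32 higher (against 85.6%), with a median of 2.09. Within it SSP1, needed for the prospore membrane, differed by −2.11 ± 0.16 and AMA1, an activator of the meiotic anaphase-promoting complex, by 1.82 ± 0.14 (limma, adjusted p = 3.61e-06 and 2.96e-06), but with spike-in scaling SSP1 stood at −0.40 and did not pass the test (limma, adjusted p = 0.193).

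AHT1 is a reading frame between the hexose transporter genes HXT4 and HXT1. It had levels of −10.20, −9.47 and −8.91 on the F3 arrays, against −7.01, −7.11 and −7.17 on the reference arrays, and was at least 4.46-fold lower in F3 (2.34-fold with the spot floor). HXT1 differed by −1.11 ± 0.09 and HXT4 by 0.76 ± 0.16 (limma, adjusted p = 5.06e-06 and 0.00196), and with spike-in scaling HXT1 stood at 0.60. COI1, a protein of the mitochondrial inner membrane tied to respiratory chain assembly, had levels of −9.62, −10.43 and −9.49 on the F3 arrays, against −8.01, −8.15 and −7.51 on the reference arrays, and was at least 2.53-fold lower (1.35-fold with the spot floor). Its intensity was 13.5, 4.44 and 12.4 units in F3 and 11.7, 18.1 and 27.6 units in the reference, where reference array 1 lay within the F3 range.

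At the edge of the rule, differences were small or the strains met. YBR300C had the lowest reference level of the set, with levels of −10.62, −9.67 and −9.79 on the F3 arrays, against −8.91, −8.27 and −8.05 on the reference arrays, and a limit of 1.79-fold. The limit was 1.99-fold for YOL037C and 2.17-fold for YLR236C, and the other genes known by a systematic name alone that are outside the 10 largest reached up to 4.39-fold (YDR445C). With the spot floor the limits of YBR300C, YOL037C and YLR236C were 0.94-fold, 1.23-fold and 1.14-fold, so that of YBR300C showed no decrease. YLL047W had intensities of 17.6, 17.2 and 17.2 units in F3 and 12.3, 22.2 and 27.0 units in the reference, and YGR265W had 17.3, 20.1 and 23.2 units in F3 and 16.2, 20.6 and 20.8 units in the reference. For YLL047W and YGR265W the strains differed in scaled level and overlapped in intensity. Just outside the rule, 18 genes were well above background on 1 F3 array and every reference array, and 17 on no F3 array and 2 reference arrays. The 18 held RCF3, a mitochondrial regulator of respiratory complexes, with levels of −8.79, −7.96 and −8.27 on the F3 arrays, against −4.77, −4.88 and −4.68 on the reference arrays, a wider gap than for most genes inside. YNL174W and YDR048C came next, with mean levels of −8.42 and −9.10 in F3 and −5.80 and −6.96 in the reference.

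Annotation was a feature that the rule did not use. Of the 39 genes, 27 (69.2%) had no entry in the RefSeq gene table of assembly R64, against 477 of all 6256 genes (7.62%) and 192 of the 5755 genes well above background on all 6 arrays (3.34%). Of the 202 genes well above background on no array, 125 (61.9%) had none. Among the genes just outside the rule, 9 of the 18 on 1 F3 array and every reference array (50%) had none. The same held for 8 of the 17 on no F3 array and 2 reference arrays (47.1%). The opposite pattern, well above background on every F3 array and no reference array, held for 40 genes, of which 11 (27.5%) had no entry. The 39 genes had a median fold limit (reference over F3) of 3.50 and a highest one of 64.6, against 3.25 and 184 (F3 over reference) in those 40. The 12 genes with an entry had a median length of 610.5 bases, against 1221 bases over the 5779 genes with one. By their systematic names, 37 of the 39 were nuclear and spread over 14 of the 16 chromosomes, with 6 on chromosome IV, 5 each on II and VII and none on III or VI. Only YAR075W and YBR300C lay among the last 3 genes with a probe on an arm (2 of the 37 nuclear ones, 5.41%, against 96 of all 6233 nuclear genes, 1.54%). Of 21 gene lists on pathways and families, the mitochondrial and the IMP dehydrogenase lists alone held any of the 39. The meiosis and sporulation list was written without SPO19 and SPR2, so it does not count the sporulation genes of the set.

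The neighbours, which the rule did not choose, were compared next. Leaving out ARO3, which met the rule itself, the next genes with a probe on either side of the 37 nuclear genes were 72, of which 70 were tested. Of these, 36 were called lower in F3 (51.4%, against 38.2% of all tested genes) and 24 higher (against 41.5%), with a median difference of −0.32, against 0.05 over all genes. At 2-fold or more, 20 were lower (28.6%, against 16.2%) and 9 higher (12.9%, against 16.6%). Of the neighbours on the opposite strand, 24 of 43 tested were lower, with a median of −0.64, and of those on the same strand 12 of 27, with a median of −0.08. The difference between these shares was not tested. Neighbours were taken by the order of systematic names, and overlap was looked up only for genes of the set with a RefSeq entry. Of the 72 neighbours, 53 lay beside a gene without an entry. Whether these neighbours cover the same bases as the gene beside them was not tested, so their values may not be independent of the rule. With spike-in scaling, 6 of the 70 neighbours were called lower (8.57%, against 4.29%) and 52 higher (against 85.6%), with a median of 1.39, against 1.76 over all genes.

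Besides NSR1, REI1 and YAR073W, and with ARO3 left out, the neighbours with the largest decreases were TOD6, a repressor of ribosome biogenesis genes beside YBL053W (−3.68 ± 0.16), RPC53, a subunit of RNA polymerase III beside YDL151C (−3.36 ± 0.11), RRP15 beside YPR142C (−2.25 ± 0.07), RRP14 beside YKL083W (−2.14 ± 0.15) and RPC19, shared by RNA polymerases I and III, beside YNL114C (−1.95 ± 0.09). YDL050C lay between LHP1, the yeast La protein of RNA 3′ ends (−2.02 ± 0.08), and KNH1, of cell wall glucan synthesis (−2.79 ± 0.11). All of these had limma adjusted p values between 2.87e-08 and 1.86e-06. With spike-in scaling NSR1, TOD6, RPC53, REI1, YAR073W and KNH1 were the neighbours still called lower, at −3.70, −1.97, −1.65, −1.33, −1.17 and −1.08, while RRP15, RRP14, LHP1 and RPC19 lay between −0.54 and −0.24 and did not pass the test. IRC16 beside YPR039W was well above background on 1 F3 array and every reference array, and differed by −1.47 ± 0.08 (limma, adjusted p = 5.15e-07), or by 0.24 with spike-in scaling.

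Other neighbours rose. MAL12 beside YGR291C and MAL32 beside YBR300C, which encode near-identical maltases whose probes may share transcripts, rose by 5.56 ± 0.11 and 5.32 ± 0.13 (limma, adjusted p = 3.61e-09 and 9.11e-09). MPC3, a subunit of the mitochondrial pyruvate carrier beside YGR242W, rose by 4.12 ± 0.15 and FMT1, the mitochondrial formyltransferase of initiator methionine beside YBL012C, by 2.40 ± 0.14 (limma, adjusted p = 4.78e-08 and 5.94e-07). YGR290W, on the other side of YGR291C, had no reference array well above background and was at least 3.50-fold higher in F3 (1.74-fold with the spot floor; limma, adjusted p = 3.48e-08), though its difference was −0.30 after another background correction (normexp). YGR291C itself, between this frame and MAL12, was at least 3.92-fold lower in F3 (2.06-fold with the spot floor). YGR242W, YBR300C and YBL012C had limits between 1.79-fold and 3.05-fold (0.94-fold to 1.60-fold with the spot floor). With spike-in scaling YGR242W (0.01) and YBR300C (0.10) were not lower in F3.

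**Figure D4:**
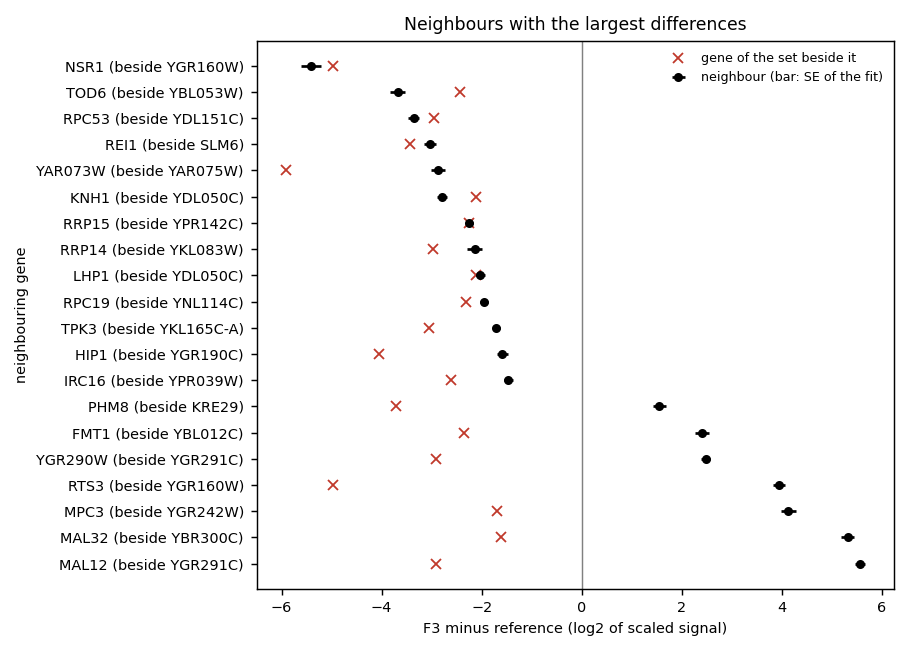
Difference (F3 minus reference, log2 of scaled signal) of the 20 neighbours with the largest differences among those called at least 2-fold, with ARO3 left out, as black points with the SE of the fit, and of the gene of the set beside each, as red crosses that show measured differences and not limits. NSR1 (−5.41) and RTS3 (3.95) lie on either side of 0 next to the same gene, YGR160W, and of the 20 neighbours 13 are lower and 7 higher in F3 on this scale, with TPK3, HIP1 and IRC16 not below 0 with spike-in scaling and YGR290W below 0 with normexp.

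The sizes depended on how arrays were scaled. With spike-in scaling and its higher median over all genes, 33 of the 39 genes were lower in F3, against 7.77% of all tested genes, and 19 had all F3 arrays below all reference arrays, against 3.63%. Nothing is read from these shares, since the rule chose the genes by the same contrast. The fold limits are then smaller by the same 1.71 log2 units. BI2 stood at −4.49, YAR075W at −4.21, YGR160W at −3.25, EHD3 at −2.64, YOL013W-A at −2.63, AI3 at −2.56 and YGR190C at −2.35. The genes above 0 were YOL037C (0.67), YGR265W (0.55), YLL047W (0.42), YBR300C (0.10), YLR374C (0.02) and YGR242W (0.01), each with intensities that overlapped between the strains. With quantile normalization, with normexp background correction and in the authors' deposited table, all 39 were lower in F3.

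**Figure D5:**
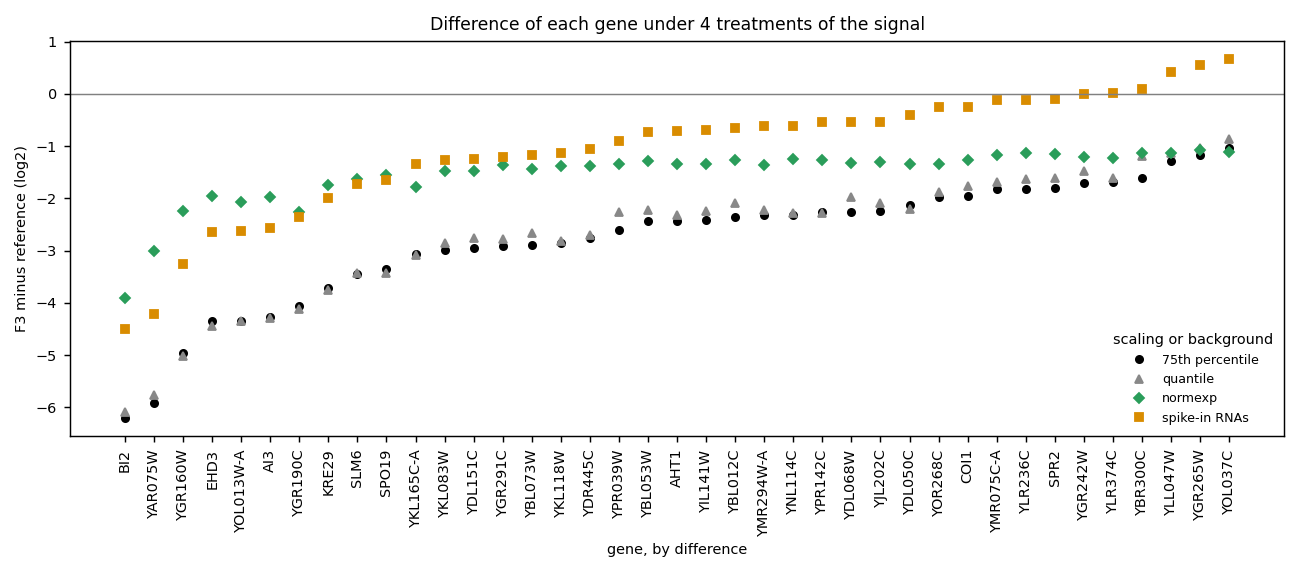
Difference (F3 minus reference, log2) of each of the 39 genes, ordered by its size, with 4 treatments of the signal: black circles for 75th percentile scaling, grey triangles for quantile normalization, green diamonds for normexp background correction and orange squares for scaling by spike-in RNAs. Quantile values lie close to the black circles, and the orange squares lie 1.71 higher and cross 0 for 6 genes at the right. Normexp values are smaller in size for every gene but YOL037C, with the widest gaps among the genes with the largest differences, such as BI2, YAR075W and YGR160W.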

How the data were processed

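Per the file headers, spots were extracted with Agilent Feature Extraction 10.7.3.1 (the submitters' processing notes name 9.1). The processed signal in the deposited files is an intensity, background-subtracted and detrended within arrays per the file headers, with no scaling between arrays. The authors' deposited table of log2 values is centred per probe, and its scaling between arrays stays unknown. The medians of its F3 columns were 0.0098, 0 and 0.0110, those of its reference columns −0.0055, −0.0056 and −0.0141, and the columns correlated with the centred scanner values with r between 0.988 and 0.993.

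For each probe, the processed signals of its 2 spots were averaged as log2 values, and from each array its own 75th percentile was subtracted. Control spots were left out. Differences were fitted in R 4.3.3 by limma 3.58.1 (lmFit, eBayes, two-sided, Benjamini-Hochberg, threshold 0.05) over the 5948 genes with 3 or more arrays well above background, all 39 genes among them by construction. The fit was checked on simulated data. The array number (3 per strain) limits the precision. Names came from the RefSeq table (5756 matched by locus tag, 23 by synonym, 477 unmatched). Normexp (offset 50) was run on median spot and local background intensities. The genes and lists were chosen with earlier results of these data known. Values per array were given for genes with a standard name and the 10 largest limits, neighbours were named if called at least 2-fold (up to 20), and so were the other members of lists that hold one of the 39. KRS1, HXT1, HXT4, RCO1, SSP1 and AMA1 were named after their values were seen. Same-numbered arrays of both strains had deviations correlated at −0.15, 0.08 and −0.25, so they were not treated as pairs.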

Additional observations from a re-analysis of the deposited data

How the results depend on the processing

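With "positive and significant" as the flag, 20 genes in place of 39 met the rule and 13 in place of 40 the opposite one, with 3 of the 39 shared. Requiring both spots gave 29 and 59, with 23 of the 39 and 30 of the 40 shared. Those 23 of the 39 had both spots well above background on every reference array. The rest of the 39 had only 1 such spot on at least 1 reference array. Leaving out 1 array gave 39 to 53 and 41 to 54. The median reference level of −7.33 was −8.19 with spike-in scaling and −5.40 with normexp, and −7.37 to −7.30 with 1 array left out. The median difference of −2.43 was −0.72 with spike-in scaling, −1.35 with normexp, −2.27 with quantile normalization, −2.24 in the authors' deposited table and −2.61 to −2.38 with 1 array left out. The median log2 limit of 1.81 was 0.10 with spike-in scaling, 1.24 with normexp and 0.99 with the dimmest spot as floor, a setting chosen after seeing the data, and 1.59 to 2.005 with 1 array left out. Genes called lower numbered 255 (5092 higher) with spike-in scaling in place of 2275 (2467 higher), and 2125 to 2237 with 1 array left out. Neighbours called lower numbered 6 in place of 36 with spike-in scaling, 68 of 140 when the next 2 genes on either side were taken, and 36 to 37 with 1 array left out. With the array number as a replicate block, the counts were 2211 genes and 36 neighbours, and of the named genes only OLI1 lost its call. With spike-in scaling the differences of YLR374C (0.0244), YGR242W (0.00659), YLL047W (0.42), YGR265W (0.55), YOL037C (0.67), YBR300C (0.10), TPK3 (0.000637), HIP1 (0.12), IRC16 (0.24), OLI1 (1.31), Q0297 (1.43), IMD2 (0.39), KRS1 (0.77), HXT1 (0.60) and the uncalled AI2 (1.32) and RCO1 (1.59) had the opposite sign. OLI1 stood at 0.10 with quantile normalization and 0.11 in the authors' deposited table, and YGR290W at −0.30 with normexp. The cause of these changes was not tested, apart from the shift of 1.71 that spike-in scaling adds to every gene.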

Other observations

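On reference array 3, which had a slide of its own, YOL013W-A and BI2 stood out most among the 5948 tested genes. Their levels there were higher by 1.40 each than the mean of reference arrays 1 and 2, the largest such gaps of all tested genes, while the median gap over all genes was −0.01. AI3 ranked 11 with a gap of 1.04 and EHD3 ranked 32 with 0.67. The 20 genes with the largest gaps held 3 of the 39 genes and 7 mitochondrial reading frames, among them ATP8 (1.27), AI1 (1.19) and VAR1 (1.08). The 5948 tested genes held all 39 genes and 17 mitochondrial reading frames. Array 3 was the highest reference array for 14 of the 39 genes, a share that was not counted over all genes, so nothing is read from it.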
